A study of Mus musculus with 8 samples.

Results

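The comparison asked whether red blood cells (RBCs) changed gene expression differently in hematopoietic stem cells (HSCs) and in the wider LSK population. For each gene, the effect of RBCs in LSK cells was subtracted from the effect of RBCs in HSCs, and this difference of effects is called the interaction. All 8 of the 8 libraries entered it, and 12003 of the 24346 genes in the files were tested, those that reached 1 FPKM in 2 or more libraries. FPKM is the number of fragments scaled by the length of the transcript and by how many fragments were mapped. Of the genes tested, 63 were genes of short RNAs, which were left aside, although they took part in the fit and in the adjustment of p-values. Their rule follows symbols, so it also takes in a few longer host genes of microRNAs.

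All HSCs and LSK cells came from the bone marrow of wild-type C57BL/6 mice. LSK cells are negative for lineage markers and positive for Sca-1 and c-Kit. HSCs were the CD48- CD150+ fraction of LSK cells, so the LSK gate takes in the HSC phenotype together with multipotent progenitors. Each population was cultured for 1 day either alone or with RBCs, giving 4 groups named HSC_Ctrl, HSC_RBC, LSK_Ctrl and LSK_RBC with 2 libraries each. In all 4 groups the medium was serum-free and held cytokines, among them stem cell factor (SCF). The RBCs were peripheral blood passed through a leukocyte filter and irradiated. After culture, red cells were lysed and CD45-positive cells were sorted, so the cells were not sorted again by the HSC or LSK phenotype. The labels do not say whether the 2 libraries of a group came from separate cultures or animals, and the p-values measure the spread between these libraries, which may be technical.

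HSCs sit at the top of blood formation and are mostly quiescent in the marrow, and cytokines such as SCF drive them into cycle in culture. The progenitors of the LSK gate divide more often and have begun to express myeloid or lymphoid genes. Myeloid programs are led by the factors PU.1 and C/EBP and include granule proteases, lysozymes and chemokines. Entry into S phase is driven by E2F factors, which switch on the MCM helicase and other replication genes, while mitotic genes are switched on later through CHR and CCAAT elements.

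Depth was estimated at 10340000 to 13210000 fragments a library, read from the steps between the FPKM values of weakly expressed genes. The sum of FPKM ranged from 680942 to 752107 over the libraries, and 14829 to 16551 genes were above 0. Pearson's r between the replicates of a group lay between 0.979 and 0.983 across genes. Slamf1, which encodes CD150, had FPKM values of 10.2 and 10.7 in HSC_Ctrl and 4.58 and 4.63 in LSK_Ctrl. Cd48 had 42.7 and 40.5 in HSC_Ctrl and 147 and 184 in LSK_Ctrl, so its transcript was present in the HSC libraries at a lower level than in LSK cells. With RBCs, Slamf1 had 5.50 and 6.59 in HSC_RBC and 3.09 and 4.28 in LSK_RBC. Cd48 had 16.0 and 22.8 in HSC_RBC and 123 and 128 in LSK_RBC. Both gate genes were thus lower with RBCs than without in HSCs and in LSK cells, with no overlap between libraries in either population. The part of these shifts in the results below was not tested. In bulk libraries, fewer cells of a type and less RNA per cell cannot be told apart.

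The effect of RBCs differed between the populations for 10 genes other than short RNA genes (limma, Benjamini-Hochberg adjusted p under 0.05 and an interaction of at least 2-fold). Of all genes tested, 0.108% passed this threshold. The effect was higher in HSCs for 2 of the 10 genes, Hbb-b1 and Lat. It was higher in LSK cells for 8, namely Wfdc17, Ccl9, Sdc1, Mylpf, Pglyrp1, Fbp1, Pcp4l1 and Apoe. Of all genes tested, 0.0333% passed in favor of HSCs and 0.075% in favor of LSK cells. These shares count the same genes, together with short RNA genes, and are not a separate background. At an unadjusted p under 0.05, 12.5% of all genes differed, 5.99% in favor of HSCs and 6.53% in favor of LSK cells.

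The RBC effect in each population alone was held to the same threshold. In HSCs, 0.633% of all genes passed with a higher level and 0.142% with a lower level under RBCs, and in LSK cells 0.9% and 0.108%. Among the 11940 genes other than short RNA genes, the effects in HSCs and LSK cells, which share no libraries, had a Pearson's r of 0.38 and the same sign for 54.6% of genes. Either effect passed the threshold of its own comparison for 167 genes, and 86.8% of these had the same sign in both populations. Of the 167 genes, 51 had passed in HSCs only, 77 in LSK cells only and 39 in both. The interaction passed for 4 of the 167, against 0.108% of all genes. At an unadjusted p under 0.05 it was 104 of the 167, chosen on the same libraries, against 12.5% of all genes. For 9 of the 10 genes past the interaction threshold, the effects in HSCs and LSK cells had opposite signs. They include Hbb-b1, which rose in both populations once summed with its copy Hbb-bs, by 4.29 in HSCs and 3.01 in LSK cells. With the copy Hbb-b2 added as well, the effect was -0.64 in HSCs and -0.41 in LSK cells, and neither passed. Opposite signs were also common at the unadjusted level, for 563 of 714 genes whose effect was higher in HSCs and for 592 of 778 whose effect was higher in LSK cells, where a gene has to have unequal effects to be counted.

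**Figure D1:**
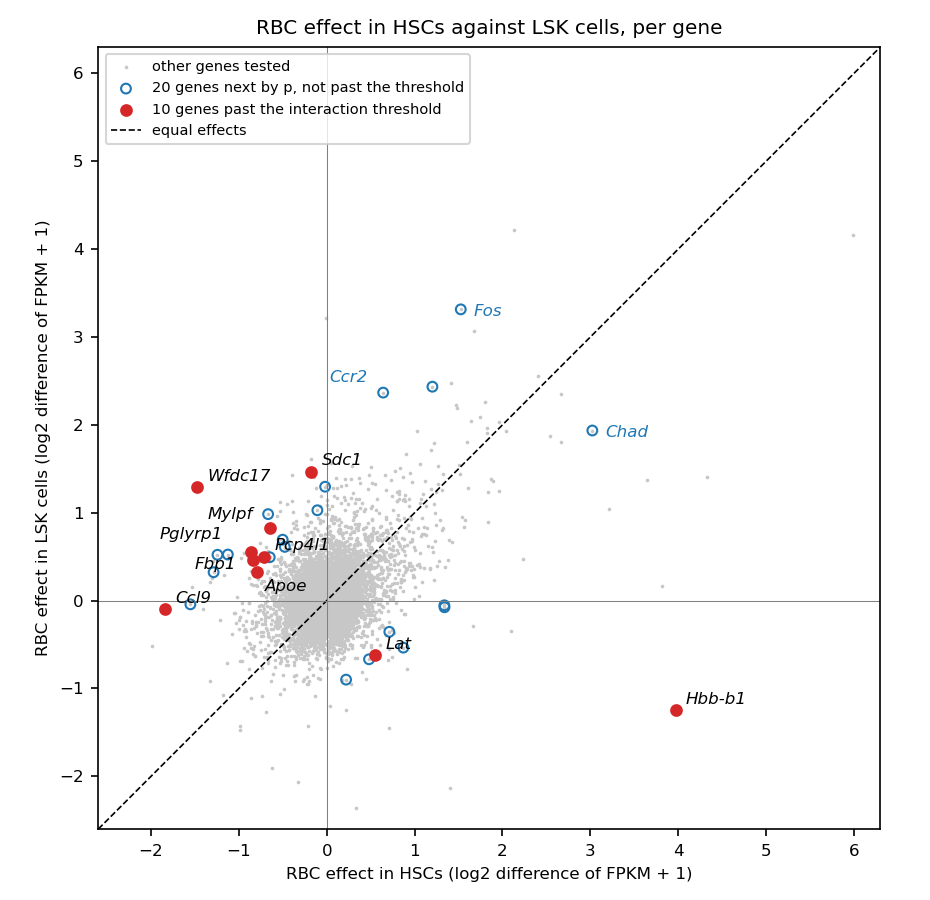
The effect of RBCs in HSCs (x axis) and in LSK cells (y axis) is shown for each gene tested other than short RNA genes, as the log2 difference of FPKM + 1 between libraries with and without RBCs. The dashed line marks equal effects, filled points the 10 genes past the interaction threshold and open circles the 20 genes next by p that did not pass. The 8 genes above the line and Lat and Hbb-b1 below it lie away from the cloud of genes in opposite quadrants or, for Ccl9, at a low HSC effect.

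For 4 genes the effect passed an adjusted p of 0.05 in each population with opposite directions. Wfdc17 (chr11:83703991-83706268), a small secreted protein with a WAP domain that activated macrophages make, had FPKM values of 77.5 and 98.7 in HSC_Ctrl and 30.1 and 31.6 in HSC_RBC. In LSK cells it had 204 and 139 without RBCs and 391 and 439 with RBCs. It was therefore lower with RBCs in both HSC libraries and higher in both LSK libraries, and the groups did not overlap in either population. Its log2 effect was -1.47 in HSCs and 1.29 in LSK cells, an interaction of -2.77 (standard error 0.238, adjusted p = 0.00306).

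Pcp4l1 (chr1:171173262-171196268), a small protein related to the calmodulin-binding protein Pcp4, had 45.2 and 47.3 FPKM in HSC_Ctrl and 26.9 and 28.7 in HSC_RBC. In LSK cells the values were 39.6 and 39.2 without RBCs and 56.5 and 55.8 with RBCs. The LSK libraries lay below the HSC libraries without RBCs and above them with RBCs, so the order of the populations turned over. The interaction was -1.22 (standard error 0.104, adjusted p = 0.00306), with a narrow 95% interval from -1.45 to -0.98.

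Mylpf (chr7:127208890-127214298), a regulatory light chain of fast skeletal muscle myosin, was low, with an estimated 31.4 to 135 fragments per library. It fell in HSCs, with 5.75 and 6.55 FPKM without RBCs and 4.08 and 3.10 with them. It rose in LSK cells, with 8.29 and 8.58 without RBCs and 15.5 and 16.0 with them. Its groups did not overlap in either population, and the interaction was -1.48 (standard error 0.199, adjusted p = 0.0338).

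Lat, the adaptor that links antigen receptors to downstream signaling in T cells and is also used by platelets and mast cells, went the other way. It had 14.6 and 15.4 FPKM in HSC_Ctrl and 21.3 and 23.6 in HSC_RBC, and 20.9 and 19.6 in LSK_Ctrl and 13.3 and 12.3 in LSK_RBC. All 4 groups were separate, with HSCs below LSK cells without RBCs and above them with RBCs. The interaction was 1.17 (standard error 0.143, adjusted p = 0.0189). The gene lies at chr7:126363824-126369570 and an exon of the microRNA gene Mir7058 lies within its exons on the same strand. The T cell gene Lck had 10.1 and 12.1 FPKM in HSC_Ctrl, 13.6 and 13.2 in HSC_RBC, 14.9 and 15.4 in LSK_Ctrl and at most 13.9 in LSK_RBC, with an interaction of 0.41 (adjusted p = 0.345).

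For 4 further genes the HSC effect passed and the LSK effect did not. Apoe (chr7:19696109-19699188), the lipoprotein that carries cholesterol between cells, had 217 FPKM in each HSC_Ctrl library and 135 and 115 in HSC_RBC. In LSK cells it had 88.9 and 87.0 without RBCs and 102 and 120 with RBCs. HSCs without RBCs thus stood alone at a high level, while the libraries of HSC_RBC and LSK_RBC overlapped. The interaction was -1.12 (standard error 0.133, adjusted p = 0.0176).

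Pglyrp1 (chr7:18871331-18890459), a peptidoglycan-binding protein of neutrophil granules, had 49.2 and 56.0 FPKM in HSC_Ctrl against 28.0 and 28.9 in HSC_RBC. In LSK cells it had 45.4 and 61.7 without RBCs and 80.0 and 76.6 with RBCs, where the effect had an adjusted p of 0.0525. The HSC and LSK libraries overlapped without RBCs and were far apart with RBCs, and the interaction was -1.42 (standard error 0.183, adjusted p = 0.0259).

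Fbp1 (chr13:62864753-62888282), the enzyme of gluconeogenesis that hydrolyses fructose bisphosphate, had 7.05 and 8.40 FPKM in HSC_Ctrl and 4.02 and 3.72 in HSC_RBC. The LSK values were 15.9 and 18.9 without RBCs and 23.3 and 25.1 with RBCs. No groups overlapped, and the interaction was -1.30 (standard error 0.186, adjusted p = 0.0453).

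Ccl9 (chr11:83572919-83578636), a CC chemokine of myeloid cells, fell in HSCs from 14.8 and 16.0 FPKM to 2.69 and 4.69. In LSK cells the libraries with and without RBCs overlapped, at 65.5 to 78.5 FPKM. It is the gene among the 10 whose effects had the same sign, and the interaction was -1.74 (standard error 0.249, adjusted p = 0.0453).

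Sdc1 (chr12:8771323-8793715), a heparan sulfate proteoglycan of the cell surface, passed in LSK cells and not in HSCs. It rose in LSK cells, with 7.51 and 8.19 FPKM without RBCs against 21.8 and 25.2 with them, while the HSC libraries overlapped at 2.88 to 4.13 FPKM. The interaction was -1.64 (standard error 0.210, adjusted p = 0.0259).

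Hbb-b1, a beta globin gene, had 1.93 and 1.94 FPKM in HSC_Ctrl and 65.1 and 31.0 in HSC_RBC, against 0.907 and 2.12 in LSK_Ctrl and 0.0438 and 0.0145 in LSK_RBC. The interaction was 5.21 (standard error 0.462, adjusted p = 0.00306), but the gene has near-identical copies between which fragments can be split. Its symbol had no single match in GENCODE M21, so no position is given. Summed with Hbb-bs before the log, the values were 1.94 and 1.98, 65.1 and 50.1, 0.912 and 2.29, and 19.0 and 19.4 FPKM in the same order of groups. The interaction of that sum was 1.28 (standard error 0.326, adjusted p = 0.185) and did not pass. With Hbb-b2 added, the effect was -0.64 in HSCs and -0.41 in LSK cells, and the interaction was -0.23 (adjusted p = 0.871). For the alpha globins Hba-a1 and Hba-a2 summed, the effect was 5.34 in HSCs and 4.202 in LSK cells, and the interaction of 1.14 did not pass either (adjusted p = 0.172).

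**Figure D2:**
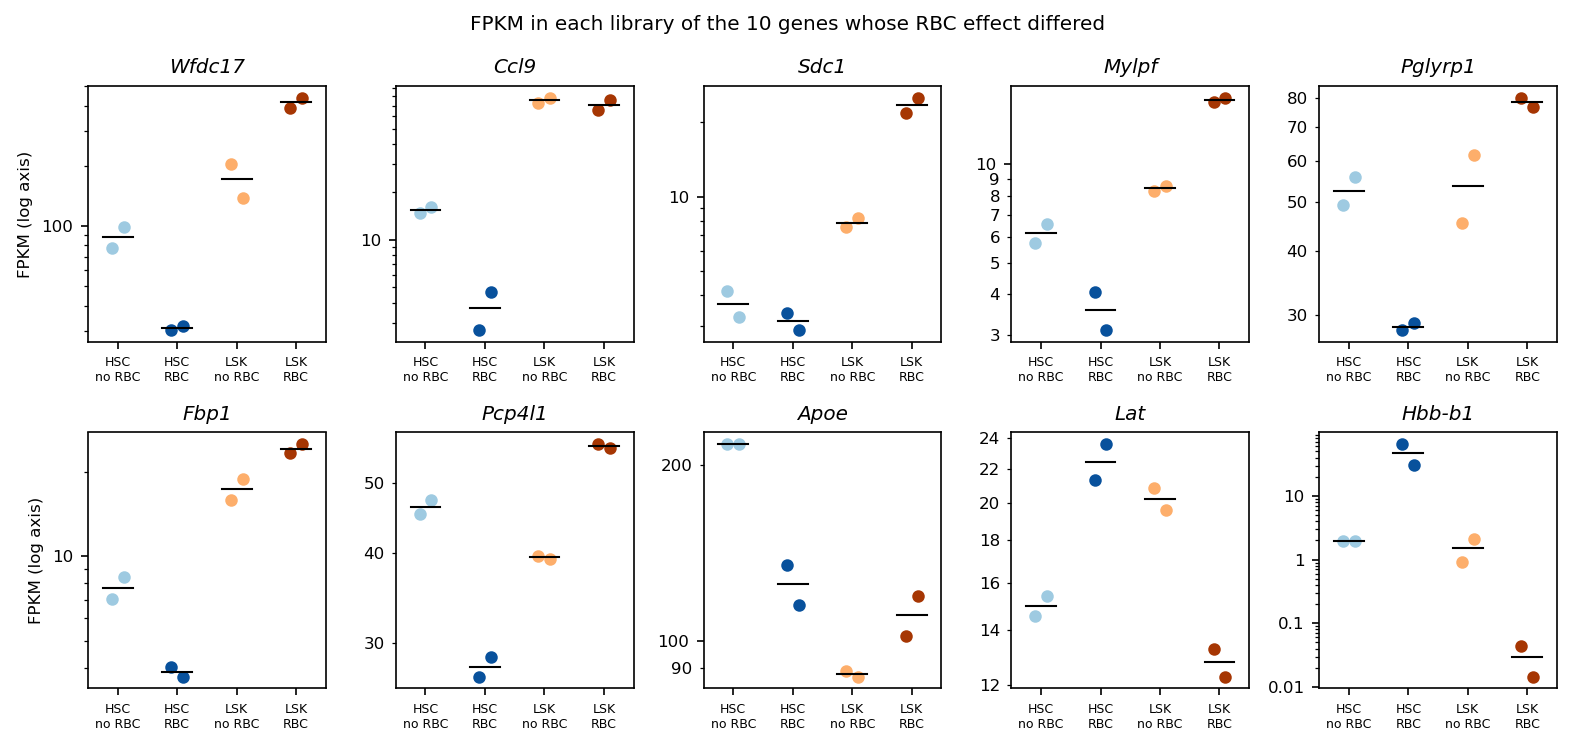
FPKM on a log axis is shown for each library of the 10 genes past the interaction threshold, with the HSC and LSK libraries without and with RBCs from left to right. Points are single libraries and bars the means of 2. Wfdc17, Pcp4l1 and Mylpf move down in HSCs and up in LSK cells, Lat moves up in HSCs and down in LSK cells, and for Sdc1 the HSC libraries overlap.

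In each fit that left out 1 of the 8 libraries, Pcp4l1, Wfdc17 and Hbb-b1 passed the threshold. Apoe passed in 3 of the 8 fits, Ccl9 and Pglyrp1 in 2, Sdc1 and Mylpf in 1, and Lat and Fbp1 in 0, although no interaction changed sign. The highest adjusted p was 0.242 for Fbp1, 0.235 for Ccl9, 0.183 for Mylpf and Sdc1 and 0.123 for Lat without LSK_RBC replicate 2. It was 0.167 for Pglyrp1 without LSK_RBC replicate 1 and 0.0798 for Apoe without HSC_Ctrl replicate 2.

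Another 3 genes had an adjusted p under 0.05 with an interaction under 2-fold. They are named here after their values were seen, and 0.133% of all genes had an adjusted p under 0.05. Plac8, a cysteine-rich protein of myeloid cells, had 161 and 179 FPKM in HSC_Ctrl, 443 and 423 in HSC_RBC, 628 and 618 in LSK_Ctrl and 809 and 815 in LSK_RBC. It was higher with RBCs in both populations, by more in HSCs, and the interaction was 0.96 (standard error 0.0956, adjusted p = 0.00492). Prtn3, a serine protease of primary granules, rose in LSK cells, with 223 and 204 FPKM in LSK_Ctrl against 359 and 384 in LSK_RBC, while HSCs had 223 and 231 without RBCs and 208 and 216 with RBCs. Its interaction was -0.89 (standard error 0.0968, adjusted p = 0.00927), and it overlaps the gene Plppr3 on the other strand. Wdr5, a subunit shared by histone H3K4 methyltransferase complexes, rose in HSCs, with 52.9 and 52.8 FPKM in HSC_Ctrl against 74.2 and 69.2 in HSC_RBC. Its LSK values were 63.6 and 62.7 without RBCs and 52.2 and 52.9 with RBCs. Its interaction was 0.69 (standard error 0.0966, adjusted p = 0.0408).

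Wfdc17 and Ccl9 lie on the same stretch of chromosome 11, a place that played no part in how they were chosen. From the start of Ccl9 to the end of Wfdc17, at chr11:83572919-83706268 (GRCm38), there are 133.3 kb that hold 6 genes of the files, of which 5 were tested. These are the chemokines Ccl9, Ccl6, Ccl3 and Ccl4, followed by Wfdc17. The interaction was below 0 for all of them, at -1.74 for Ccl9, -0.93 for Ccl6, -1.76 for Ccl3, -1.51 for Ccl4 and -2.77 for Wfdc17, and it passed for Ccl9 and Wfdc17. The stretch was drawn around these genes after their values were seen, so it has no test of its own.

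Ccl3 and Ccl4, which attract monocytes and lymphocytes, had lower levels with RBCs in HSCs. Ccl3 had 4.46 and 8.16 FPKM in HSC_Ctrl and 2.11 and 1.87 in HSC_RBC (adjusted p of the HSC effect 0.0273), against 110 and 74.5 in LSK_Ctrl and 126 and 134 in LSK_RBC. Ccl4 had 24.2 and 29.8 in HSC_Ctrl and 10.4 and 6.93 in HSC_RBC (adjusted p of the HSC effect 0.00421), and its LSK libraries overlapped at 48.4 to 69.2. The interactions had adjusted p-values of 0.094 and 0.0933. Next to this stretch, Wfdc18 had an interaction of -1.57 (adjusted p = 0.31) and Ccl5 one of -0.29 (adjusted p = 0.872).

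The next 20 genes by p with an interaction of at least 2-fold did not pass, with adjusted p-values between 0.0592 and 0.0992. The effect was higher in LSK cells for 13 of them and in HSCs for 7. Of the 20 genes, 14 passed when short RNA genes were left out of the fit, which then called 24 genes, and 22 of those 24 also passed with robust empirical Bayes. The exceptions were Ccl3 and Ccl4.

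Some of the 20 had effects of the same direction and unequal size. Fos, a subunit of the AP-1 factor induced by growth signals, had 5.10 and 4.34 FPKM in HSC_Ctrl, 15.7 and 15.2 in HSC_RBC, 3.27 and 1.74 in LSK_Ctrl and 30.9 and 35.3 in LSK_RBC. Its effect passed in both populations, at 1.53 in HSCs and 3.31 in LSK cells, and the interaction was -1.79 (adjusted p = 0.0592). Chad, a cartilage matrix protein, had 51.1 and 59.0, then 509 and 403 FPKM in HSCs and 68.4 and 60.9, then 265 and 236 in LSK cells. Its interaction was 1.09 (adjusted p = 0.0616), and it lies within the gene Acsf2, on the other strand.

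Others stood apart in LSK cells. Ccr2, the receptor that brings monocytes out of the marrow, had 0.840 and 0.976 FPKM in HSC_Ctrl, 1.87 and 2.09 in HSC_RBC, 7.61 and 4.57 in LSK_Ctrl and 34.4 and 35.01 in LSK_RBC. All 4 groups were separate, and the interaction was -1.72 (adjusted p = 0.0645). Traf3ip2, the adaptor of the interleukin 17 receptor, had 2.29 and 2.33 FPKM without RBCs and 2.23 and 2.30 with RBCs in HSCs, against 3.01 and 3.78 and then 10.1 and 9.39 in LSK cells. Padi2, which converts arginine of proteins to citrulline, had 12.8 in each LSK_Ctrl library and 26.9 and 27.4 in LSK_RBC, with 0.819 to 1.26 in the HSC libraries. Mgst2, a microsomal glutathione transferase, had an effect of -0.67 in HSCs and 0.98 in LSK cells, and its interaction was -1.65 (adjusted p = 0.0744).

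A smaller number stood apart in HSCs. Spint1, an inhibitor of surface proteases, had 4.69 and 4.998 FPKM without RBCs and 15.7 and 12.1 with RBCs in HSCs, while its LSK libraries overlapped at 9.37 to 11.8. Its HSC effect of 1.34 passed, and the interaction was 1.42 (adjusted p = 0.0616). Pald1, a putative phosphatase, had 0.832 and 0.588 FPKM in HSC_Ctrl and 3.39 and 3.24 in HSC_RBC, while its LSK libraries lay between 0.555 and 0.973. It reached 1 FPKM only in HSC_RBC, so it met the filter through the group where it was high. Others of the 20 were Fgf3, Endod1 and Sapcd2, with interactions of 1.07, 1.15 and 1.12, and Med9os, Crip2, Clu, Traf1 and Sytl4, with interactions from -1.65 to -1.09.

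Genes of DNA replication and of the G1 to S transition leaned to HSCs. All 21 of 21 tested members had an interaction above 0, against 50.2% of all genes, and 13 had an unadjusted p under 0.05, against 5.99%. None passed the interaction threshold, by limma's adjusted p, the lowest being 0.0806 for Mcm7. The median interaction was 0.34, against 0.00 over all genes, with a median effect of 0.07 in HSCs and -0.27 in LSK cells. In LSK cells 20 of the 21 genes had an effect below 0, against 52% of all genes, and 5 had an adjusted p under 0.05, against 1.13% of all genes with a lower level. In HSCs 15 had an effect above 0, against 48.2% of all genes, and 0 had an adjusted p under 0.05 (limma).

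The genes that fell in LSK cells were Mcm7, Mcm5, Mcm2 and Mcm6, subunits of the replicative helicase, and Uhrf1, which keeps DNA methylation through replication. Mcm7 had 217 and 212 FPKM in HSC_Ctrl and 248 and 232 in HSC_RBC, against 182 and 196 in LSK_Ctrl and 149 and 146 in LSK_RBC. It was higher with RBCs in both HSC libraries and lower in both LSK libraries, with an interaction of 0.52 (standard error 0.0922). Mcm5 had 155 and 126, then 159 and 156 in HSCs and 96.3 and 102, then 74.7 and 69.4 in LSK cells, with an interaction of 0.62 (standard error 0.135). Uhrf1 had 57.8 and 46.6, then 54.5 and 55.5 in HSCs and 41.4 and 48.9, then 30.5 and 30.3 in LSK cells. Ccne1, the cyclin of the G1 to S transition, had an effect of 0.41 in HSCs and -0.18 in LSK cells. Rrm2, Slbp and Ccne2 differed least, with interactions of 0.01, 0.02 and 0.10.

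Mitotic genes followed with smaller LSK effects. Of 20 genes of G2 and M phase, 19 had an interaction above 0, against 50.2% of all genes, and the median interaction was 0.26. An unadjusted p under 0.05 in favor of HSCs was found for 8, against 5.99%. The median effect was 0.15 in HSCs and -0.17 in LSK cells, and 1 gene had an adjusted p under 0.05 in HSCs, against 1.57% of all genes with a higher level there. This was Ube2c, the ubiquitin-conjugating enzyme of the anaphase-promoting complex, with 48.9 and 54.0 FPKM in HSC_Ctrl, 73.9 and 72.2 in HSC_RBC, 86.0 and 86.4 in LSK_Ctrl and 83.5 and 85.2 in LSK_RBC. Its interaction was 0.53 (standard error 0.0999, adjusted p = 0.0946). Plk1, the mitotic kinase, had 19.5 and 16.9, then 23.8 and 23.8 in HSCs and 22.6 and 22.9, then 16.8 and 19.97 in LSK cells. Cenpa, a centromeric histone, was the gene of the 20 with an interaction below 0, at -0.28. Over all alternative settings, the median interaction kept its sign, between 0.285 and 0.383 for the replication genes and between 0.228 and 0.311 for the mitotic genes.

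The promoters of these 2 lists are described next, and their part in the RBC effects was not tested. Windows of 250 bases before the most 5' annotated start came from RefSeq (GRCm38.p6), and both strands were searched. An E2F site (TTTGGCGC, TTTCCCGC, TTTGCCGC or TTTCGCGC) was found in 4 of 17 replication genes with a window (23.5%), against 1.92% of 27025 windows. A CHR element (TTTGAA) was found in 7 of 17 mitotic genes (41.2%), against 16.3%, and a CCAAT box in 15 of 17 (88.2%), against 34.5%. The letters were chosen with earlier results known, and a match is a description of the window. Both lists hold genes known to be driven through such sites, so shares above those of all windows follow from the lists. In the windows of Mcm5 (chr8:75109259-75109508, plus strand) and Mcm6 (chr1:128359706-128359955, minus strand), capitals mark E2F sites, some of which overlap on opposite strands. In that of Ccnb2 (chr9:70421555-70421804, minus strand), they mark a match to the CHR letters and 3 matches to CCAAT. Ccnb2, a cyclin of mitosis, had an interaction of 0.36 (0.23 without LSK_Ctrl replicate 1).
Mcm5: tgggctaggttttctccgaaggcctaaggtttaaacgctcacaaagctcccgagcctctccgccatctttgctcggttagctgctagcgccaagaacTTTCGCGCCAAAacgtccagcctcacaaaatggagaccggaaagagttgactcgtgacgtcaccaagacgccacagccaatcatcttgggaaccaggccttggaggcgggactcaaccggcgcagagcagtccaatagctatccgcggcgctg
Mcm6: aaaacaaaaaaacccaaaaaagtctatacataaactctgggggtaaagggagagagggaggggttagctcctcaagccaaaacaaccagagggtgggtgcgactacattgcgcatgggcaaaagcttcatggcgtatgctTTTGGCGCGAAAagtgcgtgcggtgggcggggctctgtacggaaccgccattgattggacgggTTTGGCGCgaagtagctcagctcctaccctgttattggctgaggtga
Ccnb2: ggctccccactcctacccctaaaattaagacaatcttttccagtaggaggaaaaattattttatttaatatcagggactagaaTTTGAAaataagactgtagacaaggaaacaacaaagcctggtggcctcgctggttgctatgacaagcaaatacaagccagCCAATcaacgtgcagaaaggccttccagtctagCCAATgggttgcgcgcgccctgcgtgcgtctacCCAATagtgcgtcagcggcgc

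The same windows of the genes past the interaction threshold were searched for a PU.1 site (GAGGAA), found in 6 of 9 genes with a window (66.7%), against 23.1% of all windows. Among primary granule genes it was found in 6 of 12 (50.0%) and among chemokines in 4 of 14 (28.6%). A C/EBP site (TTGCNNAA) was found in 1 of 9, against 9.55%. The 9 genes are few and were picked by their interaction, and a match is only a description of the window. Whether these sites have a part in the RBC effects was not tested. Apoe (chr7:19699189-19699438, minus strand) and Fbp1 (chr13:62888283-62888532, minus strand) hold the PU.1 letters in windows free of annotated exons, and capitals mark them.
Apoe: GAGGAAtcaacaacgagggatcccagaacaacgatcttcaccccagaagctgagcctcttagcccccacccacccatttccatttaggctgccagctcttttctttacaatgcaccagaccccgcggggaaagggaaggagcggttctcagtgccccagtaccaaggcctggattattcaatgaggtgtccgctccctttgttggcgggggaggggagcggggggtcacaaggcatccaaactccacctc
Fbp1: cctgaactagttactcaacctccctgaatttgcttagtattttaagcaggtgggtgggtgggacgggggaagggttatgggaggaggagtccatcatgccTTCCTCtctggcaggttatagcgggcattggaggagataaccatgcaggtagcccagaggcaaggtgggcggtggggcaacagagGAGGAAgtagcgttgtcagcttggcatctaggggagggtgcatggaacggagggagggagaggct

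**Figure D3:**
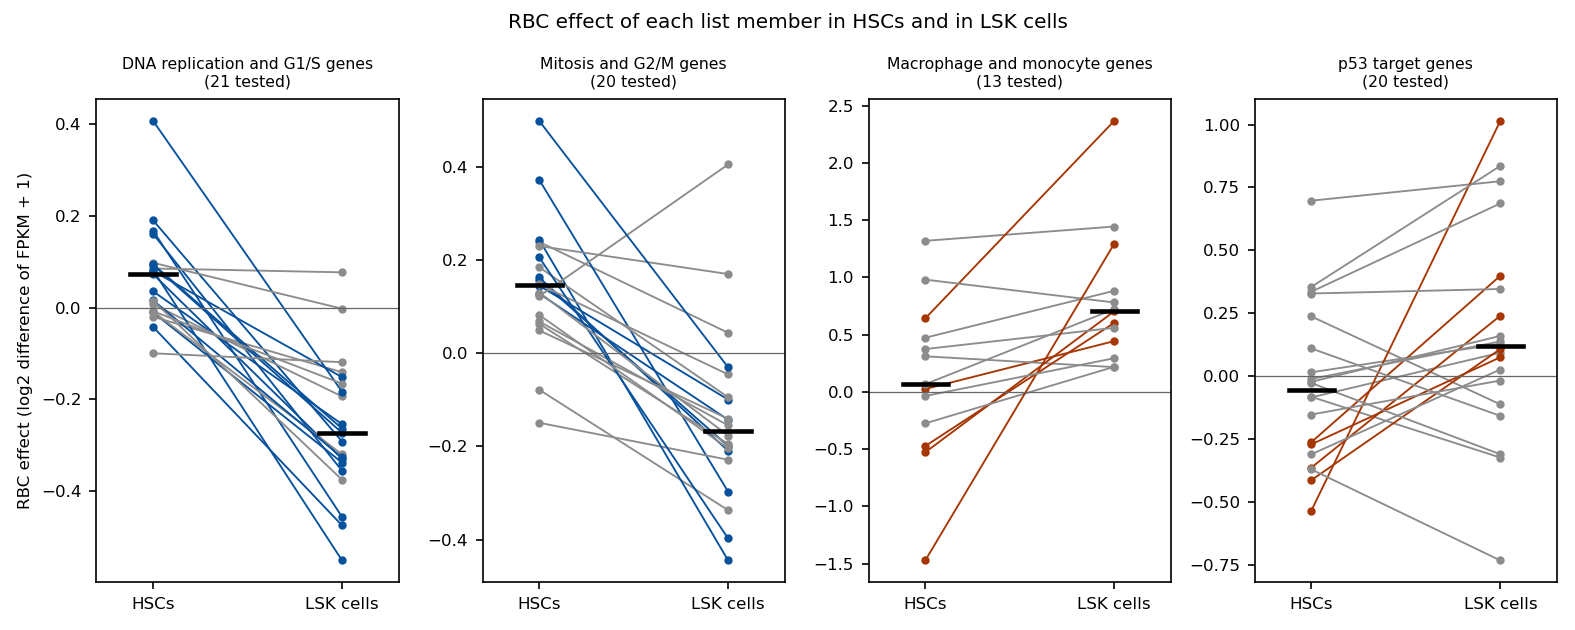
Each line joins the effect of RBCs in HSCs to that in LSK cells (log2 difference of FPKM + 1) for a tested member of 4 gene lists, with thick bars at the medians. Colored lines have an unadjusted interaction p under 0.05, blue where the effect was higher in HSCs and brown where it was higher in LSK cells. Replication and mitosis genes slope down from HSCs to LSK cells, at medians of 0.07 and -0.27 and of 0.15 and -0.17, while macrophage and p53 target genes have higher medians in LSK cells.

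Macrophage and monocyte genes leaned to LSK cells. Of 13 tested, 11 had an interaction below 0 and 5 an unadjusted p under 0.05 in that direction, against 6.53% of all genes, and Wfdc17 passed. The median interaction was -0.42, with a median effect of 0.07 in HSCs and 0.70 in LSK cells. In LSK cells all 13 had an effect above 0, against 48% of all genes, and 3 had an adjusted p under 0.05, against 2.32% with a higher level. Lyz2, the lysozyme of myeloid cells, had 312 and 321 FPKM in HSC_Ctrl and 221 and 218 in HSC_RBC, against 296 and 196 in LSK_Ctrl and 341 and 454 in LSK_RBC. It was lower with RBCs in both HSC libraries and higher in both LSK libraries, with an interaction of -1.23 (standard error 0.252, adjusted p = 0.127). Its neighbour Lyz1, a close copy with which it can share fragments, had -1.08 (adjusted p = 0.167). Csf1r, the receptor that macrophages depend on, had an interaction of -0.12, and 2 of the 22 listed genes were at 0 in all libraries.

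Primary granule genes, which mark committed granulocyte and monocyte progenitors, had a median of the same sign. Of 13 tested, 10 had an interaction below 0 and 3 one above 0, against 50.2% of all genes above 0. An unadjusted p under 0.05 was found for 4 in favor of LSK cells, against 6.53% of all genes. In favor of HSCs it was found for 1, against 5.99%. The median was -0.31, but -0.49 without HSC_Ctrl replicate 1 and -0.16 without HSC_RBC replicate 2. Mpo, the peroxidase of these granules, had 17.8 and 11.1 FPKM in HSC_Ctrl and 6.16 and 2.82 in HSC_RBC (adjusted p of the HSC effect 0.0214), against 466 and 585 in LSK_Ctrl and 579 and 581 in LSK_RBC. Elane, neutrophil elastase, had 33.6 and 33.1 FPKM in LSK_Ctrl and 84.2 and 65.7 in LSK_RBC, with 0.476 to 3.77 in the HSC libraries, which overlapped. Its interaction of -1.53 was -0.69 without HSC_RBC replicate 2 and -2.38 without HSC_RBC replicate 1. Cst7, an inhibitor of cathepsins, was 1 of the 3 genes above 0, with an interaction of 0.93 (adjusted p = 0.135). The summed FPKM of the list lay between 1508 and 1718 in the HSC libraries, and was 2230 and 2329 in LSK_Ctrl and 2676 and 2758 in LSK_RBC.

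Late neutrophil genes did not share this direction. Of 13 tested, 4 had an unadjusted p under 0.05 in favor of HSCs and 2 in favor of LSK cells. Over all genes these shares were 5.99% and 6.53%. The median of 0.30 turned to -0.15 without HSC_RBC replicate 1 and -0.30 without LSK_Ctrl replicate 2. S100a9, a calcium-binding protein of neutrophils, had 0.220 and 1.33 FPKM in HSC_Ctrl and 87.9 and 11.8 in HSC_RBC, against 30.5 and 63.5 in LSK_Ctrl and 156 and 89.6 in LSK_RBC. Its interaction of 2.92 was 1.52 without HSC_RBC replicate 1, and S100a8 and Chil3 were also highest there within HSCs. The summed FPKM of the list was 42.9 and 35.5 in HSC_Ctrl, 342 and 118 in HSC_RBC, 194 and 294 in LSK_Ctrl and 686 and 478 in LSK_RBC. It moved with RBCs in both populations, and its part in the other myeloid results was not tested. The secreted proteases Mmp8 and Mmp9 were near 0 in HSCs and had interactions of -1.35 and -1.25. Mmp9 reached 1 FPKM only in LSK_RBC, so it met the filter through the group where it was high.

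Mast cell and basophil genes had a median interaction of -0.29 (-0.50 without LSK_Ctrl replicate 2). A higher effect in LSK cells at an unadjusted p under 0.05 was found for 5 of 14, against 6.53% of all genes. Gzmb, 1 of these 5, reached 1 FPKM only in LSK_RBC, so it met the filter through the group where it was high. Fcer1a, a chain of the IgE receptor, fell in HSCs from 2.66 and 5.38 FPKM to 0.187 and 0.248, and its LSK values were 4.77 and 3.70 without RBCs and 3.28 and 2.09 with RBCs. Its interaction was -1.47 (standard error 0.384, adjusted p = 0.194). Cpa3, a mast cell protease, had FPKM values of 1.08 to 2.83 in the HSC libraries and 17.8 to 29.0 in the LSK libraries.

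Lists of mature lymphoid cells had few tested members. Of the B cell list 4 genes were tested, of the T cell list 2 and of the NK cell list 3, with 0 past the interaction threshold (limma). An unadjusted p under 0.05 was found for 3, against 12.5% of all genes. The 3 were Cd79b, at -0.46, Lck, and Klrd1, at 0.68. Lymphoid priming genes had a median of -0.30 (-0.16 without LSK_Ctrl replicate 1). Of 14 tested, 3 had an unadjusted p under 0.05, against 12.5% of all genes.

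None of the 17 tested antigen presentation genes passed the interaction threshold, the lowest adjusted p (limma) being 0.142. An unadjusted p under 0.05 was found for 5, all with a higher effect in LSK cells, against 6.53% of all genes. These 5 belong to the class II pathway: H2-Ab1, H2-Aa, H2-Eb1, H2-DMb1 and Cd74. H2-Aa had 32.7 and 40.2, then 36.0 and 29.0 FPKM in HSCs and 17.3 and 22.5, then 32.3 and 33.5 in LSK cells. The HSC libraries overlapped and the LSK libraries did not, and the interaction was -0.87 (standard error 0.211, adjusted p = 0.18). H2-K1, H2-D1 and B2m of class I had interactions of -0.02, -0.03 and -0.20. Ciita, the activator of class II genes, had 0.49 in the other direction (not past an unadjusted p of 0.05).

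Immediate early genes and the feedback genes of cytokine signaling had medians below 0. Of 22 immediate early genes, 7 had an unadjusted p under 0.05 in favor of LSK cells, against 6.53% of all genes. Another 2 had one in favor of HSCs, against 5.99%, and the median of the list was -0.21. That median depended on single libraries, at -0.02 without LSK_Ctrl replicate 2, -0.11 without HSC_Ctrl replicate 1 and -0.32 without LSK_Ctrl replicate 1. Zfp36 (interaction -0.63, and -0.40 without LSK_Ctrl replicate 2), which destabilises cytokine mRNAs, passed an adjusted p of 0.05 in both populations, with 37.2 and 32.5, then 60.6 and 56.6 FPKM in HSCs and 36.8 and 26.1, then 74.2 and 90.2 in LSK cells. Dusp6, a phosphatase that restrains ERK, had the opposite order, with 23.6 and 24.0, then 48.3 and 39.2 in HSCs and 29.4 and 31.1, then 37.4 and 34.4 in LSK cells, and an interaction of 0.60 (adjusted p = 0.182).

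Of 15 STAT target and SOCS genes, 5 had an unadjusted p under 0.05, all with a higher effect in LSK cells. The share over all genes was 6.53%, and the median of the list was -0.16 (-0.10 without HSC_Ctrl replicate 2). Pim1, a survival kinase induced by STAT5, had 24.5 and 27.8, then 25.5 and 25.7 FPKM in HSCs and 19.8 and 20.4, then 35.2 and 32.1 in LSK cells. The HSC libraries overlapped while LSK cells rose, with an interaction of -0.74 (standard error 0.132, adjusted p = 0.0806). Socs3, an inhibitor of cytokine receptors, rose in both populations, with 6.83 and 6.76, then 12.4 and 12.3 in HSCs and 7.93 and 9.90, then 24.1 and 28.9 in LSK cells. Its interaction was -0.70 (standard error 0.189, adjusted p = 0.206). Among 24 cytokine receptors, 4 had an unadjusted p under 0.05, all with negative interactions, among them Il18r1, Cxcr4 and Ifngr1. Over all genes the share was 6.53% in that direction and 12.5% in either direction.

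Targets of p53 had a median interaction of -0.16. An unadjusted p under 0.05 was found for 5 of 20, all with a higher effect in LSK cells, against 6.53% of all genes. Pmaip1, the cell death activator Noxa, had 2.21 and 2.84, then 0.903 and 2.09 FPKM in HSCs and 7.88 and 9.51, then 20.4 and 16.8 in LSK cells, with an interaction of -1.55 (standard error 0.325, adjusted p = 0.135). Sesn1, a stress-induced inhibitor of mTORC1, had 56.2 and 59.2, then 42.1 and 47.4 in HSCs and 55.0 and 50.1, then 59.9 and 64.6 in LSK cells. Cdkn1a, the p53-induced inhibitor of the cell cycle, had an interaction of -0.11.

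HSC identity genes had a median of -0.24 (-0.15 without LSK_RBC replicate 2). An unadjusted p under 0.05 was found for 6 of 23 in favor of LSK cells, against 6.53% of all genes. In favor of HSCs it was found for 1, against 5.99%. Procr, the surface marker EPCR, fell in HSCs from 58.2 and 65.3 FPKM to 42.5 and 43.0, while LSK cells had 33.4 and 35.3 without RBCs and 35.4 and 38.9 with RBCs. Its interaction was -0.63 (standard error 0.122, adjusted p = 0.101). Pdzk1ip1 fell in HSCs, with 238 and 270, then 185 and 190 FPKM, and had 143 and 123, then 148 and 148 in LSK cells. Hlf and Mllt3, which HSCs need or express highly, had interactions of -0.45 and -0.56, with levels in HSC_RBC that were still above those in LSK_RBC. Ly6a, which encodes Sca-1, went against them, with 388 and 444, then 719 and 544 FPKM in HSCs and 381 and 226, then 204 and 170 in LSK cells, an interaction of 1.25 (standard error 0.310, adjusted p = 0.182).

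Antioxidant genes under the factor NRF2 had lower levels with RBCs in LSK cells. There 10 of 20 had an adjusted p under 0.05, of which 9 were lower, against 1.13% of all genes, and Osgin1 was higher, against 2.32%. In HSCs 3 had an adjusted p under 0.05, Taldo1, Ftl1 and Blvrb, all lower, against 0.958% of all genes with a lower level. Median effects were -0.17 (HSCs) and -0.33 (LSK cells), with an interaction of 0.12 at the median. An unadjusted interaction p under 0.05 in favor of HSCs was found for 5, against 5.99% of all genes. Gclm, a subunit of the enzyme that starts glutathione synthesis, fell in LSK cells from 214 and 215 FPKM to 114 and 106, and in HSCs it had 151 and 165 without RBCs and 147 and 125 with RBCs. The interaction was 0.73 (standard error 0.125, adjusted p = 0.0723). Nqo1, a quinone reductase, fell in LSK cells from 121 and 81.7 to 22.4 and 29.8, with 53.5 and 66.4, then 42.6 and 34.7 in HSCs and an interaction of 1.28 (standard error 0.282, adjusted p = 0.146). The heme-degrading enzyme Hmox1 had an interaction of 0.29.

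The 14 genes that the study singled out from both populations included 0 past the interaction threshold by limma and had a median interaction of -0.08. At an unadjusted p under 0.05 there were 5, against 12.5% of all genes. The study chose the 14 genes on these libraries, so their shared direction is not independent evidence. Besides Fos and Chad, Hes1, a transcription factor of the Notch pathway, had an interaction of 0.85, Itgam 0.67 and Adgre5 -0.76, with adjusted p-values of 0.271, 0.231 and 0.367. The value of Adgre5 was -0.32 without LSK_Ctrl replicate 1 and -1.19 without LSK_Ctrl replicate 2, where its adjusted p was 0.0419.

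**Figure D4:**
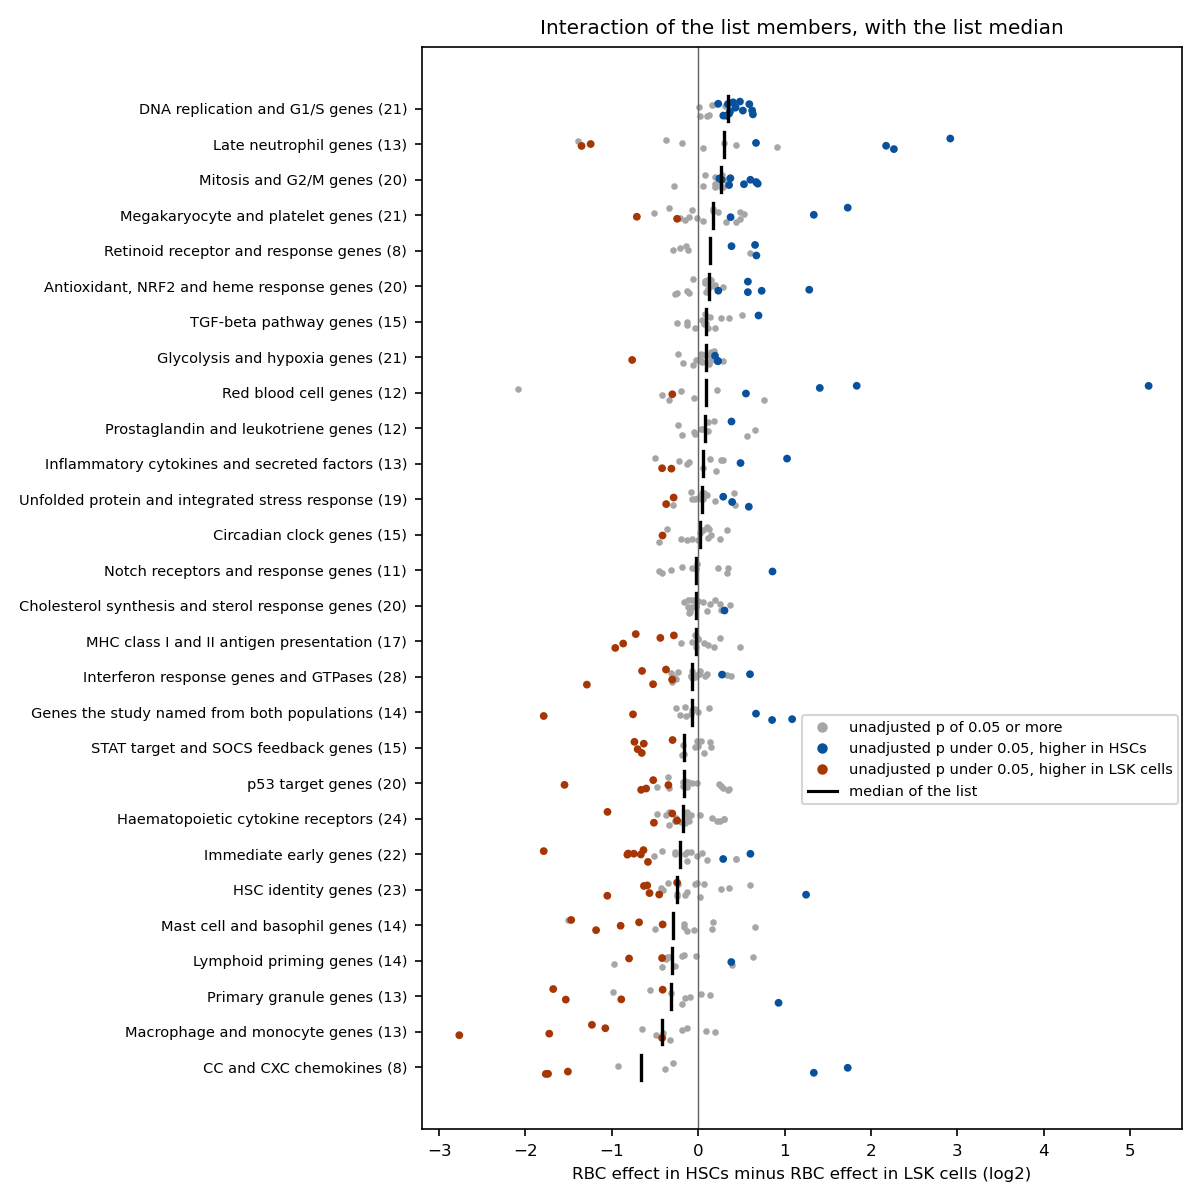
Each point is a tested member of a gene list, placed at its interaction (the log2 effect of RBCs in HSCs minus that in LSK cells), and each bar the median of the list, for lists with at least 8 tested genes and the number tested in brackets. Points with an unadjusted p under 0.05 are colored by direction. Replication genes all lie above 0, and macrophage genes have a median of -0.42. The chemokine median of -0.66 rests on 8 genes and ran from -1.22 to -0.0305 over the alternative settings.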

How the data were processed

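RNA of sorted CD45-positive cells was made into full-length cDNA, and the authors deposited 1 FPKM value per gene symbol and library, aligned to mm10 (GRCm38). The submitters' processing notes name TopHat2 2.1.1, Bowtie2 2.2.8, SAMtools 0.1.18 and Cuffdiff 2.2.1. The annotation is not given in the sources used here. Replicates were not pooled, and groups came from the sample labels.

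A pseudocount of 1 was added to the deposited FPKM before taking log2, which understates the changes of low genes. limma 3.58.1 in R 4.3.3 fitted the means of the 4 groups in a single model with a mean-variance trend, with 4 residual and 5.18 prior degrees of freedom. A call needed a Benjamini-Hochberg adjusted p, over all 12003 genes, under 0.05 and an interaction of at least 2-fold. The procedure was tested on simulated data whose noise was drawn from the fitted mean-variance trend, so that trend itself was not tested.

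The text names the genes past the threshold that are not short RNA genes, the next genes by p with an interaction of at least 2-fold up to 30 in all, list members at an unadjusted p under 0.05 and the study's genes. Short RNA genes were taken from symbols (microRNA, small nucleolar and other small RNA prefixes) and gene types. The genes, the 31 lists and the tests were chosen with earlier results of these data known. Positions came from GENCODE M21 (GRCm38), with 23268 of 24346 symbols matched to a single gene, and promoter windows from RefSeq (GRCm38.p6).

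Depth was estimated from FPKM steps of weakly expressed genes, of which 3083 of 4301 (71.7%) lay within 0.02 of whole steps. Too few genes had whole steps for a count test. Alternatives were other pseudocounts, filters, scalings, thresholds and models of the spread, a replicate block, leaving out short RNA genes and leaving out each library. Sums of globin copies were chosen after seeing the data. A few genes and a culture agent are not reported here.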

Additional observations from a re-analysis of the deposited data

Results flagged for a closer look

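The limma interaction test found unequal effects of RBCs in the 2 populations for 10 genes. The interaction was -2.77 for Wfdc17, -1.74 for Ccl9, -1.64 for Sdc1, -1.48 for Mylpf, -1.42 for Pglyrp1, -1.3 for Fbp1, -1.22 for Pcp4l1 and -1.12 for Apoe, with a higher effect in LSK cells. It was 5.21 for Hbb-b1 and 1.17 for Lat, with a higher effect in HSCs. The value of Hbb-b1 moved with the split of fragments between near-identical globin copies.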

How the results depend on the processing

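The count of genes past the interaction threshold (2 with a higher effect in HSCs, 8 with a higher effect in LSK cells) depended on the model of the spread and on the genes tested, and each pair below gives the 2 counts in that order. They were 0 and 1 without a filter, with 18967 genes tested, where Pcp4l1 was the gene left. Without the trend they were 0 and 0 by limma, with 1369 genes at an unadjusted p under 0.05, and in an ordinary linear model 0 and 0, with 1310. They were 7 and 17 with robust empirical Bayes, 7 and 17 with short RNA genes left out, 4 and 13 after quantile normalization, 4 and 9 with no fold threshold and 9 and 21 at an adjusted p under 0.1. The cause was not tested. Fits without 1 library gave 1 to 3 and 3 to 8. With the replicate block they were 1 and 4, and Lat, Apoe, Fbp1, Mylpf and Sdc1 no longer passed. The labels do not say whether the replicate numbers pair the libraries. Deviations of same-numbered libraries from their group means had correlations from -0.067 to 0.095, which cannot show whether they shared an animal or day. With pseudocounts of 0.1 and 5, a filter at 5 FPKM, TPM and median ratio scaling, each count stayed within 1.5 times the main count. None of the 10 genes changed sign in these fits. The interaction of Hbb-b1 turned to -0.23 when summed with Hbb-bs and Hbb-b2, a sum chosen after seeing the data. A lone library left in a group was assumed to vary like the other groups, and 3 to 6 of the 10 genes remained past the threshold. With 2 libraries a group, the median standard error of an interaction was 0.185 on the log2 scale.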

Other observations

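None of the genes named in the next sentences passed the interaction threshold (limma). Among glycolysis and hypoxia genes, the median interaction was 0.09, while Vegfa, the vascular growth factor, had 12.7 and 9.66, then 20.7 and 22.4 FPKM in HSCs and 15.6 and 17.5, then 54.5 and 54.6 in LSK cells. It rose in both populations, and its interaction was -0.77 (standard error 0.178, adjusted p = 0.167). The glycolytic enzymes Pgk1, Tpi1 and Eno1 fell in LSK cells and had interactions of 0.23, 0.23 and 0.19. Among stress response genes, Asns, which makes asparagine, rose in HSCs, with 101 and 103, then 158 and 136 FPKM, and had 108 and 100, then 104 and 94.5 in LSK cells. Its interaction was 0.59 (standard error 0.124, adjusted p = 0.135), and the serine synthesis genes Phgdh and Psat1 had 0.39 and 0.29, the latter 0.19 without LSK_RBC replicate 2.

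Dhrs3, a reductase of retinaldehyde, rose in both populations, with 12.6 and 12.6, then 38.4 and 40.8 FPKM in HSCs and 32.1 and 31.2, then 62.0 and 59.6 in LSK cells. Its interaction was 0.66 (standard error 0.110, adjusted p = 0.0723). Skil, an inhibitor of SMAD signaling, also rose in both, with an interaction of 0.70 (adjusted p = 0.174). Platelet genes had a median of 0.17, but 0.0418 without HSC_RBC replicate 2, 0.0846 without HSC_Ctrl replicate 1 and 0.29 without HSC_RBC replicate 1. Pf4, a platelet chemokine, had 148 and 115, then 106 and 101 FPKM in HSCs, and in LSK cells 130 and 37.8, then 13.5 and 19.1, with LSK_Ctrl libraries far apart. Its interaction of 1.73 was 0.86 without LSK_Ctrl replicate 1 and 2.61 without LSK_Ctrl replicate 2. Genes of cholesterol synthesis had a median interaction of -0.02, with 1 of 20 at an unadjusted p under 0.05, and circadian clock genes one of 0.02, with 1 of 15. Over all genes the share was 12.5%.

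The other lists had medians near 0 as well, at -0.07 for 28 interferon response genes, 0.05 for 13 inflammatory cytokines, 0.04 for 19 stress response genes, 0.10 for 15 TGF-beta pathway genes, 0.08 for 12 prostaglandin and leukotriene genes, -0.02 for 11 Notch genes, 0.13 for 8 retinoid genes and 0.08 for 12 red cell genes. Chemokines, macrophage genes and red cell genes were the lists with a member past the interaction threshold, namely Ccl9, Wfdc17 and Hbb-b1.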
